A study of Mus musculus with 2 samples.

Results

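Neutrophils with few or no transcripts of 6 cycling genes were examined in the spleens of control mice. The data come from a droplet single-cell RNA sequencing study of spleen cells bearing CD11b and Gr1. Members were wild-type cells chosen by 5 limits on their unique molecular identifiers (UMIs, 1 per captured transcript). S100a8 and S100a9 together had to make up at least 10% of a cell's UMIs, Cd79a and Cd79b under 2 UMIs, and Csf1r, Ccr2, Ace and Adgre4 under 3 UMIs. Mpo, Elane, Prtn3 and Ctsg had to stay under 0.1% of UMIs, and Mki67, Top2a, Birc5, Cdk1, Ccna2 and Ube2c under 3 UMIs. These limits kept 3272 of the 5491 wild-type cells, 59.6% (exact Clopper-Pearson 95% interval 58.3 to 60.9%), and of 14646 cells in both libraries. The wild-type library pooled 5 spleens of mice labelled FVB/n and wild type. The comparison library pooled 3 spleens of tumour-bearing mice whose strain is given only as PYMT (PyMT mice carry the polyoma middle T antigen, which drives mammary tumours), and 5009 of its 9155 cells, 54.7%, met the same limits. The labels give neither age nor any treatment.

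Neutrophils form in the marrow, and in mice also in the spleen, in a fixed order. Dividing precursors load primary granules first (myeloperoxidase, elastase), then secondary granules (lactoferrin, cathelicidin), and, after division stops, gelatinase granules that hold the matrix protease Mmp9. The gelatinase granule list used below also holds Mmp8, Cfp and other genes. Receptors for chemoattractants such as Cxcr2 and Fpr1 are gained late, as the cell becomes ready to leave. Thbs1 encodes thrombospondin 1, a secreted glycoprotein of the matrix that can activate transforming growth factor beta and bind Cd47 and Cd36. Within the members, the cells at the 2 ends of a span were set side by side: those with at least 5 UMIs of Thbs1, Mmp8 and Mmp9 summed, and those with 1 or fewer. Differences in those 3 genes between the ends follow from the choice and are given as descriptions only.

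Each condition was 1 library, and mice cannot be told apart within a pool, so there is no test between conditions and no replicate check. Ratios between the ends describe cells of 1 library. Intervals, where given, are at 95% and cover counting error only. Members held 2757 to 26831 UMIs (median 5229) and a median of 1065 genes. The PyMT cells of the same limits had a median of 7776 UMIs. No doublet caller was run. The libraries share 72 cell barcodes, and 42 members carry one of them.

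The members carried neutrophil transcripts. S100a8 was at 211079 CPM (a gene's UMIs over all cells of a set, divided by every UMI of that set and multiplied by 1000000) and S100a9 at 141635 CPM, both used by the limits. Of genes the limits did not use, the cathelicidin gene Camp was at 70963 CPM, the neutrophilic granule gene Ngp at 51451, the lipocalin gene Lcn2 at 18824, the lactoferrin gene Ltf at 12658 and Retnlg, a resistin-like secreted protein gene, at 8759. Ly6g, 1 of the Gr1 antigens, was at 1333 CPM. In 302 wild-type B cells, chosen by 5 or more UMIs of Cd79a and Cd79b and under 1% S100a8 and S100a9, Camp was at 1460 CPM, Ngp at 1070.3 and Retnlg at 293 CPM, a background level from below, since B cells with more S100a8 and S100a9 were kept out (median 3990.5 UMIs per B cell). All 10 listed neutrophil markers outside the limits were detected and summed to 165632 CPM in members against 3723 in the B cells.

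Markers of other cell types were scarce, with exceptions. Summed over the genes not used by the limits, B cell markers stood at 166 CPM in members against 18685 in the B cells, NK cell markers at 15.3, macrophage markers at 99.5, erythroid markers at 22.4 and platelet markers at 17.9 CPM, with the platelet genes Gp1ba, Gp6 and Tubb1 at 0. Mcpt8, Prss34, Cpa3, Ms4a2 and Gata2 of the basophil and mast cell list and Prg2, Epx, Ccr3 and Il5ra of the eosinophil list were also at 0, but the ribonuclease genes Ear1 and Ear2 of that list were at 65.3 and 92.9 CPM. T cell markers summed to 464 CPM, and nearly all of that was Cd3d, a CD3 chain gene, at 454 CPM in members against 15.3 in the B cells; which transcript its UMIs come from was not tested. Monocyte markers summed to 1609 CPM in members and 1349 in the B cells, most of it Ly6c2 at 1551 CPM in members. The antigen presentation genes Cd74, H2-Ab1 and H2-Aa, which B cells and dendritic cells carry, were at 143, 59.2 and 57.9 CPM in members. Many members held at least 1 UMI of these genes, and the source of those UMIs was not tested.

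Few or no cells lay at the limits on S100a8 and S100a9 and on the primary granule genes, and more lay at the others. Between 10 and 11% of UMIs from S100a8 and S100a9, just inside that limit, there were 2 cells, and 0 cells lay between 9 and 10%. For Cd79a and Cd79b, 275 members had 1 UMI and 20 otherwise qualifying cells had 2. For the monocyte genes, 28 members had 2 UMIs and 40 otherwise qualifying cells had 3. For the primary granule genes, 0 cells lay near the limit. For the cycling genes, 31 members had 2 UMIs and 25 otherwise qualifying cells had 3.

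The genes that define the span were common in the members but not evenly so. A member held 0 to 79 UMIs of Thbs1, Mmp8 and Mmp9 together, with quartiles of 7, 12 and 18. The high end held 2711 members, 82.9% (81.5 to 84.1%), the middle 345, 10.54%, and the low end 216, 6.60% (5.77 to 7.51%). In GENCODE M21 on GRCm38, Mmp8 lies at chr9:7558456-7568485, Mmp9 at chr2:164940780-164955850 and Thbs1 at chr2:118111876-118127133, each on the plus strand and protein-coding. By choice, Mmp8, a collagenase gene, was at 1226 CPM at the high and 11.3 at the low end, Mmp9, the gelatinase B gene, at 1123 and 46.5, and Thbs1 at 215 and 16.9. All 3 genes were seen in 1461 members, 44.7%, and Mmp8 and Mmp9 without Thbs1 in 1130. Thbs1 alone was seen in 31 members and no UMI of any of the 3 in 110. The low end was not the shallow end: its cells had a median of 6256 UMIs, against 5080 at the high end. In the PyMT cells of the same limits the order was the other way round, with 3388 UMIs at the low and 8488 at the high end.

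**Figure D1:**
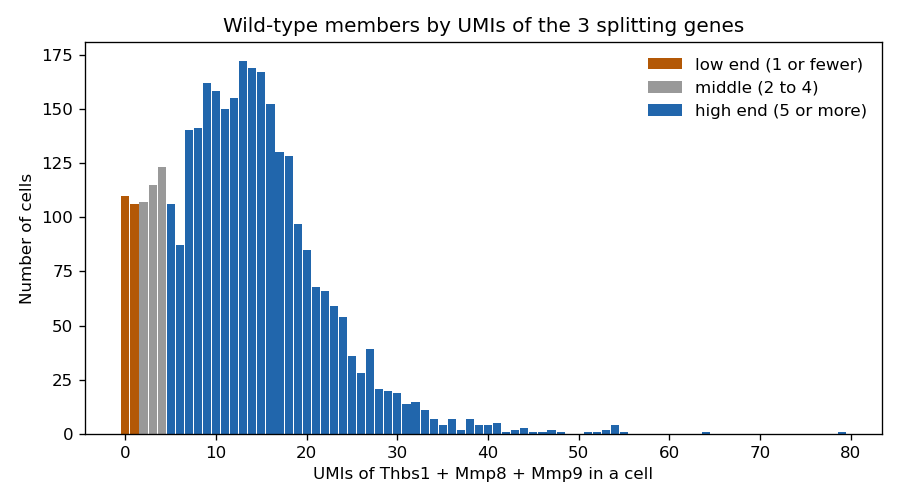
Number of wild-type members (y axis) by their UMIs of Thbs1, Mmp8 and Mmp9 summed (x axis), coloured by low end, middle and high end. The distribution runs from 0 to 79 UMIs without a gap at the limits of 1 and 5, and 216 cells are at the low and 2711 at the high end.

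Levels of other genes changed step by step across those limits. From 0 to 7 UMIs of the 3 genes, Retnlg was at 413, 686, 842, 1033, 1548, 2898, 2603 and 4383 CPM. Fcnb, which encodes ficolin B, a lectin of immature myeloid cells, was at 339, 302, 208, 139.6, 100.5, 79.9, 82.5 and 80.8 CPM over the same cells. The cells just outside either limit thus lay between the ends in both genes.

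Promoters of Mmp8, 1 of the genes that set the ends, and of Retnlg and Fcnb are shown. Retnlg and Fcnb were picked by their values, since Mmp8 and Retnlg moved together and Fcnb the opposite way. Promoters of Mmp9 and Thbs1 were missing from the reference used. The bases are the 250 before the RefSeq transcript start on GRCm38.p6, in the direction of the gene. Capitals mark TTGCNNAA, the pattern of C/EBP factors, which include the granulocyte factor Cebpe, and GAGGAA, the pattern of PU.1, the factor encoded by Spi1, each searched on both strands. The windows are chr9:7558179-7558428 (plus strand) for Mmp8, chr16:48872358-48872607 (plus strand) for Retnlg and chr2:28084879-28085128 (minus strand) for Fcnb.
Mmp8: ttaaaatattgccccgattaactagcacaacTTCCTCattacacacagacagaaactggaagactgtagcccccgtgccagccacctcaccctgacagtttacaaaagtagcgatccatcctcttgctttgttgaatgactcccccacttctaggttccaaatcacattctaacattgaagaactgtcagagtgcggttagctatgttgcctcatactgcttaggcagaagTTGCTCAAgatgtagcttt
Retnlg: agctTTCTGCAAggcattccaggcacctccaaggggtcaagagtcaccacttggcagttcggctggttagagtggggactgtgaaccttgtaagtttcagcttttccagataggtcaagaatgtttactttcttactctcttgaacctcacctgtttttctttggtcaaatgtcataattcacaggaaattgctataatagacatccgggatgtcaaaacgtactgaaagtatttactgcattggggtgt
Fcnb: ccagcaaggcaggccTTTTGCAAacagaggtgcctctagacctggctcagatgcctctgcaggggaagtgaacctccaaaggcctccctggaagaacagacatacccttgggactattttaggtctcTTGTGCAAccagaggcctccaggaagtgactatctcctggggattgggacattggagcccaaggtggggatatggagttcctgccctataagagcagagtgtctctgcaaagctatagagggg
Mmp8 held 1 match to each pattern, Retnlg 1 match to TTGCNNAA, and Fcnb 2 matches to TTGCNNAA, so the C/EBP pattern stood on both sides of the span. Of 32851 RefSeq promoters of this length, 9.56% held TTGCNNAA and 23.3% held GAGGAA. Of the 11 listed gelatinase granule genes, 9 had a promoter in the table and 5 of those (Mmp8, Adam8, Ptx3, Retnlg and Hpx) held TTGCNNAA, but Ptx3 and Hpx had 0 UMIs in the members. Of the genes at least 2-fold higher at the high end, 9.13% of 263 with a promoter held TTGCNNAA, against 10.2% of 177 among those at least 2-fold lower. A match is a description of the letters and not of binding.

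The high end carried genes of the gelatinase granule and late maturation lists, and the low end carried Fcnb and genes of division and protein folding. Among 5515 genes with at least 100 UMIs over both ends, 338 were at least 2-fold higher at the high end, 6.13%, and 221 at least 2-fold lower, 4.01%. With cells matched on depth the counts were 359 higher and 387 lower, and with each cell weighted equally 340 and 350. The whole interval lay past 2-fold for 89 higher genes, 1.61%, and 51 lower genes, 0.925%. The median log2 ratio over all of these genes was -0.03.

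Of the 11 listed gelatinase granule genes, 9 were not used to split the cells and 6 of those reached 100 UMIs; each of the 6 was at least 2-fold higher at the high end, with a median log2 ratio of 2.75. Retnlg was at 10474 CPM at the high, 1142 in the middle and 546 CPM at the low end, a log2 ratio of 4.26 (4.16 to 4.37), the highest by the rule for named genes. Fpr1, the formyl peptide receptor that detects bacterial peptides, was at 91.8, 21.6 and 9.87 CPM in the same order, a log2 ratio of 3.22. Slc11a1, a metal transporter of phagocyte granules, had 420 UMIs at the high and 4 at the low end, a log2 ratio of 3.21 (1.85 to 5.10). Adam8, a membrane protease, stood at 123 and 25.4 CPM, Mmp25, a membrane-bound matrix protease, at 25.1 and 11.3, and Cfp, which encodes the complement regulator properdin, at 131 and 59.2. Arg1, Hpx and Ptx3 had 0 UMIs in the members, which allows up to 0.153 CPM each. Timp2, an inhibitor of matrix proteases, was at 144 CPM at the high and 28.2 at the low end, a log2 ratio of 2.35, while Timp1 had 0 UMIs.

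Receptors of mature neutrophils followed the same direction. Of 30 late maturation genes, 12 were at least 2-fold higher at the high end and 0 lower, with a median log2 ratio of 0.88. Cxcr2, the receptor for chemokines that draw neutrophils from the marrow, was at 158 CPM at the high, 71.5 in the middle and 46.5 at the low end, a log2 ratio of 1.76 (1.41 to 2.14). Csf3r, the receptor for granulocyte colony-stimulating factor, stood at 112, 74.4 and 53.6 CPM, a log2 ratio of 1.06 that became 0.70 when the ends were set after thinning each cell to 2500 UMIs. In wild-type cells kept out only by the cycling genes, Csf3r was at 64.5 CPM, so its transcript was not confined to the high end. Cxcr4, which holds neutrophils in the marrow, was at 159 and 116 CPM and did not reach 2-fold. Of 29 genes for pattern recognition and Fc receptors, 23 reached 100 UMIs, 9 were higher and 0 lower; they included the C-type lectin genes Clec4e (83.6 and 24.0 CPM) and Clec4d (19.4 and 2.82), the Fc receptor gene Fcgr4 (36.1 and 9.16) and Trem1 (35.7 and 10.6). Of 26 chemoattractant and adhesion receptors, 22 reached 100 UMIs and 7 were higher, Ccr1 (107 and 35.9 CPM) and Selplg, an adhesion ligand gene (114 and 40.9), among them.

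Inflammatory and interferon genes were low but skewed to the high end. Of 29 inflammatory genes, 19 reached 100 UMIs, 6 were higher and 0 lower. Cxcl2, a chemokine for neutrophils, was at 85.1 and 14.1 CPM, Il1rn, the interleukin 1 receptor antagonist, at 65.7 and 14.8, and Osm, which encodes oncostatin M, at 126 and 39.5. Of 38 interferon response genes, 15 reached 100 UMIs and 5 were higher (Irf7, Slfn1, Samhd1, Oas3 and Dhx58), with a median log2 ratio of 0.67; Oas3 and Dhx58 missed 2-fold (0.75 and 0.92) with ends set by Mmp8 and Mmp9 alone. Of 24 genes of the NADPH oxidase and redox defence, 23 reached 100 UMIs and 0 were past 2-fold, and likewise 0 of 25 glycolysis and glycogen genes, with median log2 ratios of 0.11 and 0.07.

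Other named genes of the high end came from several families. Tpm4, an actin-binding tropomyosin gene, was at 102 CPM at the high and 5.64 at the low end, a log2 ratio of 4.18 (3.20 to 5.39). Bst1, which encodes the surface enzyme CD157, had 813 UMIs at the high and 3 at the low end, a log2 ratio of 4.58 (3.03 to 6.86). Cyp4f18, which inactivates leukotriene B4, was at 42.2 and 3.52 CPM, and Gpr27, an orphan receptor gene, at 48.1 and 4.93. Nt5e, the ecto-nucleotidase CD73 that makes adenosine, and Arg2, the mitochondrial arginase gene, had 254 and 265 UMIs at the high end and 0 at the low end, log2 ratios of at least 2.90 and 2.96 against a floor of 3 counts in the low-end sum. Dhrs9, a retinol dehydrogenase gene, had 212 and 0 UMIs, a log2 ratio of at least 2.64 against the same floor. Cd3d was at 492 CPM at the high and 224 at the low end, a log2 ratio of 1.13 (0.97 to 1.30), while Cd4, Cd8a, Cd8b1, Il7r, Tcf7, Lef1 and Cd2 were at 0 at the low end. The other-type marker sums at the high and low ends were 175 and 120 CPM for B cells, 1655 and 1347 for monocytes, 25.4 and 7.75 for erythroid cells, 13.8 and 45.1 for NK cells and 173 and 86.7 for eosinophils. Their part in the ratios was not tested.

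**Figure D2:**
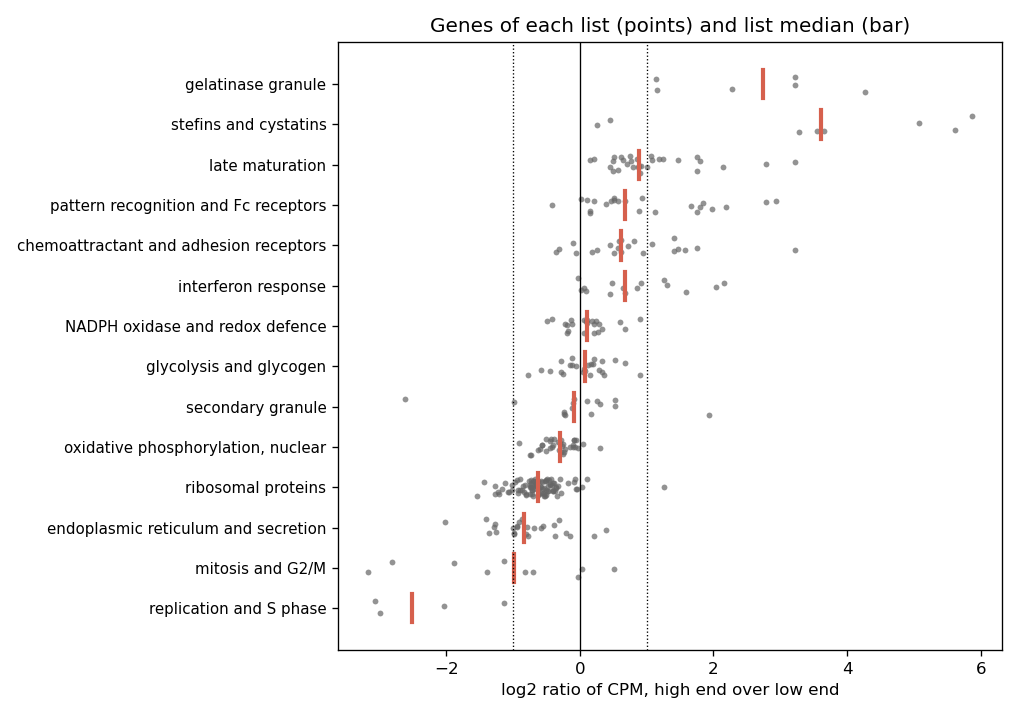
Log2 ratio of CPM at the high over the low end (x axis) for the genes of 14 lists (y axis), each point 1 gene with at least 100 UMIs and each bar the median of the list; dotted lines mark 2-fold. Gelatinase granule genes and 6 of 8 stefins lie past 2-fold to the right, replication genes and only part of the mitosis genes to the left, and oxidase and glycolysis genes around 0.

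Stefin genes encode small inhibitors of cysteine proteases and sit side by side on chromosome 16 (GENCODE M21, GRCm38, from Stfa2l1 at 36156811 to Stfa3 at 36455392). They had the largest list median, but a large part of their UMIs lay in few cells. Of 2711 high-end cells, Stfa2 was seen in 68, Stfa3 in 135, Stfa2l1 in 308 and BC100530 in 532. Of 10 listed stefins and cystatins, 8 reached 100 UMIs and 6 were higher at the high end, with a median log2 ratio of 3.60. BC100530 was at 248 CPM at the high and 19.7 at the low end, a log2 ratio of 3.65 (3.12 to 4.24), and Stfa2l1 at 68.4 and 7.05. Stfa3 had 660 UMIs at the high and 1 at the low end (log2 ratio 5.87, 3.38 to 11.2), BC117090 had 381 and 1 (5.07, 2.59 to 10.4) and Gm5483 had 1655 and 3 (5.61, 4.06 to 7.89). Stfa2 had 398 and 0, a log2 ratio of at least 3.55 against the floor of 3 counts. At the high end, 28 cells (1%) held 87.9% of the Stfa2 UMIs, 68.3% of Stfa3, 67.9% of Gm5483 and 43.4% of BC100530, against 5.12% of Retnlg and 3.92% of Mmp8. The copies are nearly identical, so reads may be assigned to the wrong one. The 42 members whose barcode also occurs in the PyMT library held 28 of 399 Stfa2 UMIs, 7.02%, and 4.31% of those of BC100530, against 1.84% of Retnlg.

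Most secondary granule genes differed little between the ends, apart from Fcnb and, close to 2-fold, Chil3. All 15 listed genes reached 100 UMIs, with a median log2 ratio of -0.10; 1 was higher (Abca13, 130 and 3 UMIs, a log2 ratio of 1.94 that became 0.60 with ends set after thinning) and 1 lower. Fcnb was at 52.0 CPM at the high, 149 in the middle and 321 CPM at the low end, a log2 ratio of -2.63 (-2.79 to -2.46). Chil3, a chitinase-like lectin gene, was at 3392, 5843 and 6744 CPM, which is -0.99 as a log2 ratio (-1.02 to -0.96), just short of 2-fold. Camp was at 68515, 83089 and 80847 CPM and Ltf at 12899.7, 12281 and 10477, so the most abundant granule transcripts stayed within 2-fold across the span. Of 12 primary granule genes, 4 are in the limits that chose the members, and 7 of the 12 reached 100 UMIs. Ms4a3, a gene of granulocyte and monocyte precursors, stood at 12.96 CPM at the high and 67.7 at the low end, and Nkg7 at 5.24 and 19.03, while Srgn, the granule proteoglycan gene, was at 45.1 and 12.7, a log2 ratio of 1.83 that became 0.54 with ends set after thinning.

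Genes of division were higher at the low end although the limits removed cells with 3 or more UMIs of 6 cycling genes. Of 20 replication genes only Dut, Tipin, Pcna and Slbp reached 100 UMIs, and each was at least 2-fold lower at the high end. A minority of the 216 low-end cells held these UMIs: Tipin was seen in 17 cells, Dut in 18, Pcna in 23 and the mitotic cyclin gene Ccnb2 in 28. Dut (70 high-end and 52 low-end UMIs), Tipin (61 and 43) and Ccnb2 (73 and 58) reached 100 UMIs only with their low-end UMIs. The minimum thus favoured a lower high end for them, and the replication genes that passed do not stand for the list. Pcna and Slbp had 111 and 553 UMIs at the high end alone. Of 28 mitosis genes, 10 reached 100 UMIs and 5 were lower. Ccnb2 was at 4.55 CPM at the high and 40.9 at the low end, a log2 ratio of -3.17 (-3.68 to -2.65), and Pcna, the replication clamp gene, at 6.92 and 28.2. The tubulin gene Tuba1b was at 14.3 and 52.9 CPM, Stmn1, which encodes a tubulin-binding protein of dividing cells, at 8.35 and 58.5, and Ptma, which encodes a nuclear protein of growing cells, at 67.1 and 351. In the cells that passed the other limits but had 3 or more cycling UMIs (293 cells, median 12694 UMIs), Tuba1b was at 907 CPM, Stmn1 at 629 and Ptma at 2075. The low end thus held these transcripts well under the level of cycling cells. Hmgb2, a chromatin protein gene, was at 1653 CPM at the high, 1680.5 at the low end and 4303 in cycling cells.

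Genes of protein synthesis and folding were also higher at the low end. Of 28 genes of the endoplasmic reticulum and secretion, 26 reached 100 UMIs, 7 were lower at the high end and 0 higher, with a median log2 ratio of -0.84. Hsp90b1, an endoplasmic reticulum chaperone gene, was at 47.3 CPM at the high and 116 at the low end, P4hb, a disulfide isomerase gene, at 15.6 and 40.2, Manf at 24.8 and 59.2, and Xbp1, a transcription factor of the unfolded protein response, at 49.2 and 98.7, a log2 ratio at the 2-fold line that fell short of it under 5 other settings. Of 105 ribosomal protein genes, 97 reached 100 UMIs, 12 were lower and 1 higher, with a median log2 ratio of -0.63. The 11 mitochondrially encoded genes with 100 UMIs had a median of -0.60 and the 35 nuclear genes of oxidative phosphorylation one of -0.30, with 0 of either past 2-fold. The splicing protein genes Snrpf (17.3 and 63.4 CPM) and Snrpd1 (11.7 and 41.6) and Igfbp4, an insulin-like growth factor binding protein gene (51.9 and 194), were among the 15 lowest. Mitochondrial UMIs made up a median of 0.263% of a high-end and 0.425% of a low-end cell, and ribosomal protein UMIs 3.28% and 4.96%. Malat1, a nuclear RNA, was at 8894 CPM at the high and 5708 at the low end.

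**Figure D3:**
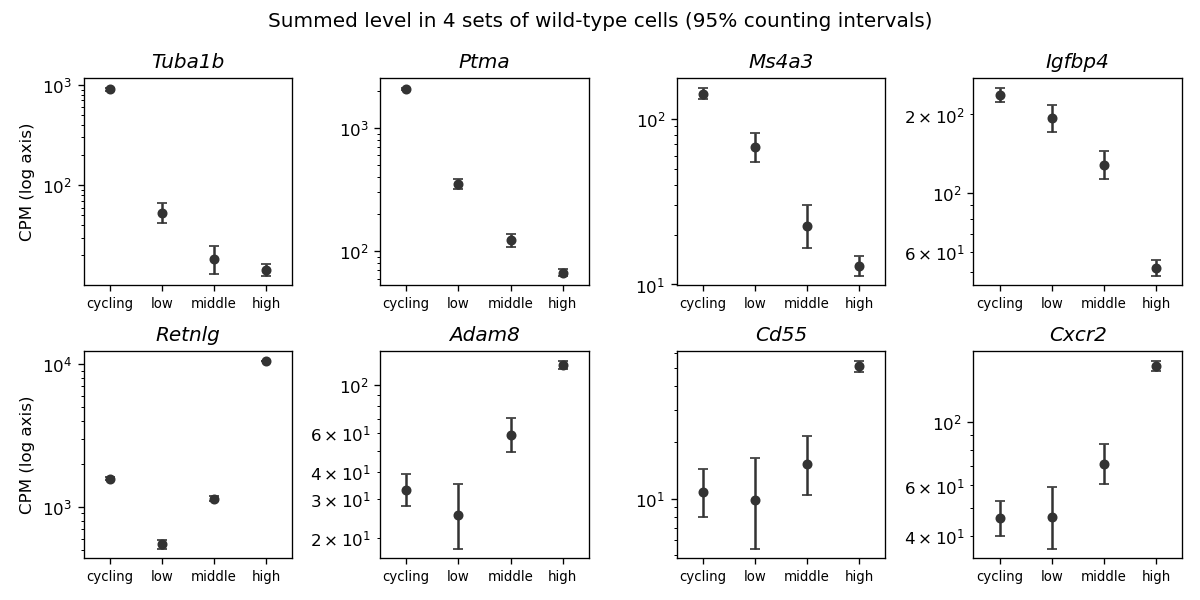
Summed CPM (log y axes) of 8 genes in cycling wild-type cells and in the low end, middle and high end of the members, with 95% counting intervals. Tuba1b, Ptma, Ms4a3 and Igfbp4 fall from left to right, and Retnlg, Adam8, Cd55 and Cxcr2 are highest at the high end; Retnlg is lower at the low end (546 CPM) than in cycling cells (1578 CPM).

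Set against the cycling cells, which the last limit alone kept out, the members had 296 of 6510 genes at least 2-fold higher, 4.55%, and 1202 at least 2-fold lower, 18.5%. The lowest named genes included Cdk1, Top2a, Ube2c and Ccna2, which the limit used, and the mitosis genes Nusap1 and Fbxo5, which it did not. Among the highest, Fpr1 was at 78.4 CPM in members and 15.4 in cycling cells, Timp2 at 127 and 29.5, Gpr27 at 40.9 and 7.32, Trpm2, a calcium channel gene, at 23.6 and 4.02, and Cd55, a complement inhibitor gene, at 44.3 and 10.9. Camp was at 70963 and 71518 CPM, so this secondary granule transcript was as abundant in the cycling cells as in the members. Fcnb was at 361 CPM in cycling cells and 321 at the low end of the members, and Chil3 at 8603 and 6744. Ms4a3 was at 142 CPM in cycling cells, 67.7 at the low end, 22.6 in the middle and 12.96 at the high end.

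The span was graded when depth was evened out. Each member was thinned to 2500 UMIs, and cells were binned by UMIs of the 3 genes left. In bins of 0, 1, 2 to 3, 4 to 7 and 8 or more UMIs (252, 260, 531, 1099 and 1130 cells), Retnlg was at 742, 1552, 3195, 8905 and 17321 CPM. Fpr1 was at 12.3, 21.6, 43.3, 89.9 and 129 CPM and Cxcr2 at 54.7, 80.4, 107 and 136 CPM and then 216.5. Fcnb fell from 264 through 175, 106 and 47.6 to 15.2 CPM, and Chil3 from 6561 to 2311. Camp was at 81452, 80859, 77857, 70326 and 60377 CPM, while Ltf stayed between 10922 and 13201 CPM and Hmgb2 between 1577 and 1690. The transcription factor gene Cebpe, needed for secondary granules, was at 704 CPM in the first and 426 in the last bin, and Spi1 at 540 and 636.

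**Figure D4:**
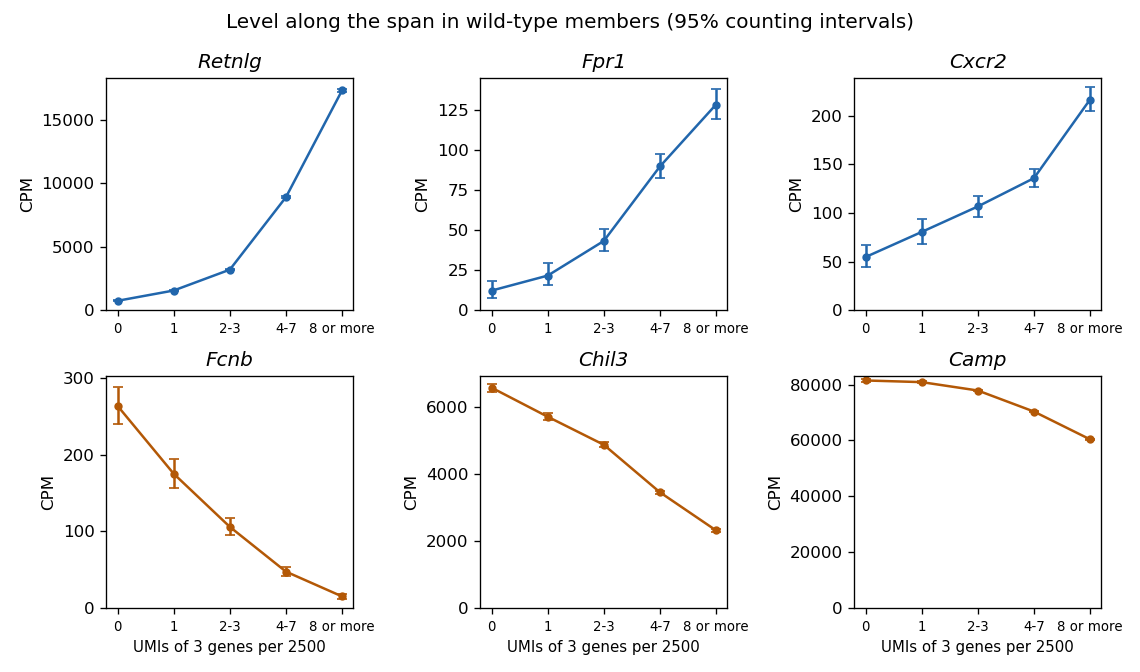
CPM (y axes) of 6 genes in wild-type members binned by UMIs of Thbs1, Mmp8 and Mmp9 after thinning to 2500 UMIs per cell (x axes), with 95% counting intervals. Retnlg, Fpr1 and Cxcr2 increase in every bin, Fcnb and Chil3 decrease in every bin, and Camp changes by less than 2-fold.

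Ends set by Mmp8 and Mmp9 alone gave a span like the main one, and ends set by Thbs1 alone did not. Members held 19843 UMIs of Mmp8 and 18845 of Mmp9 but 3609 of Thbs1, so Mmp8 and Mmp9 made up most of the sum. The 2 splits also differ in strictness, so their gene counts cannot rank the 3 genes. With the ends set by Mmp8 and Mmp9 alone (4 or more UMIs against 0; 2778 and 141 cells), 419 genes were at least 2-fold higher and 263 lower. With the ends set by Thbs1 alone (2 or more against 0; 904 and 1594 cells), 2 of 5167 genes were at least 2-fold higher and 4 lower. Named after their values were seen, the 2 were the haemoglobin genes Hbb-bs and Hba-a1 and the 4 were Ifitm1, Wfdc17, Stfa2 and Ccnb2. Retnlg then had a log2 ratio of 0.09 and Fcnb one of -0.71. Across 3272 members thinned to 2500 UMIs, Spearman's rho was 0.67 between Mmp8 and Retnlg, 0.39 between Mmp8 and Mmp9, 0.19 between Thbs1 and Mmp8 and 0.09 between Thbs1 and Mmp9, in cells of 1 library with sparse counts. Thbs1 nevertheless was higher where Mmp8 and Mmp9 were higher: in bins of 0, 1, 2 to 3, 4 to 7 and 8 or more UMIs of those 2 genes it was at 65.8, 105, 150.3, 222 and 246 CPM. Platelets also hold Thbs1. It was at 187 CPM in 2970 members without a UMI of the platelet list and at 165 CPM in the other 302, and the platelet chemokine genes Pf4 and Ppbp had 26 and 9 UMIs in all members.

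The other markers of these cells did not follow the span alike. Stk39, a kinase gene of ion transport control, was at 120 CPM at the high and 109 at the low end, a log2 ratio of 0.14 (-0.10 to 0.39), and its rho with Mmp8 was 0.01. Tmem45a2, a membrane protein gene, was at 87.6 CPM at the high, 89.8 in the middle and 58.5 at the low end, a log2 ratio of 0.58 (0.26 to 0.92). G0s2, which encodes an inhibitor of the fat-releasing lipase Pnpla2, was at 527, 395 and 284 CPM, which is 0.89 as a log2 ratio (0.75 to 1.04). At least 1 UMI was found in 51.3% of members for Thbs1, 94.2% for Mmp9, 80.6% for Mmp8, 76.9% for G0s2, 45.1% for Stk39 and 31.2% for Tmem45a2 (median 5229 UMIs). In the B cells these 6 genes were at 2.66, 21.98, 29.3, 9.32, 1.33 and 1.33 CPM in the same order, and 1.32%, 9.27%, 13.6%, 4.64%, 0.662% and 0.662% of B cells (median 3990.5 UMIs) held at least 1 UMI. Thrombospondin's receptor gene Cd47 was at 312 CPM in members, and Cd36 had 0.46 CPM.

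The 6 markers were chosen with the difference from PyMT cells known, and their ratios are a description. Thbs1 was at 185 CPM in members and 3.40 in PyMT cells of the same limits, Stk39 at 117 and 16.0, Tmem45a2 at 85.7 and 13.1, and G0s2 at 495 and 239, whereas Mmp8 was at 1015 and 930.2 and Mmp9 at 964 and 736. The gap in Thbs1 was present at every level of Mmp8 and Mmp9. In the 5 bins of UMIs of those 2 genes, PyMT cells had 1.35, 0.77, 4.57, 3.19 and 5.77 CPM of Thbs1. Stk39 lay between 91.1 and 127 CPM in wild-type and between 14.2 and 18.96 in PyMT bins, Tmem45a2 between 68.7 and 108 and between 10.8 and 14.4, and G0s2 between 311 and 616 and between 189 and 274.

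**Figure D5:**
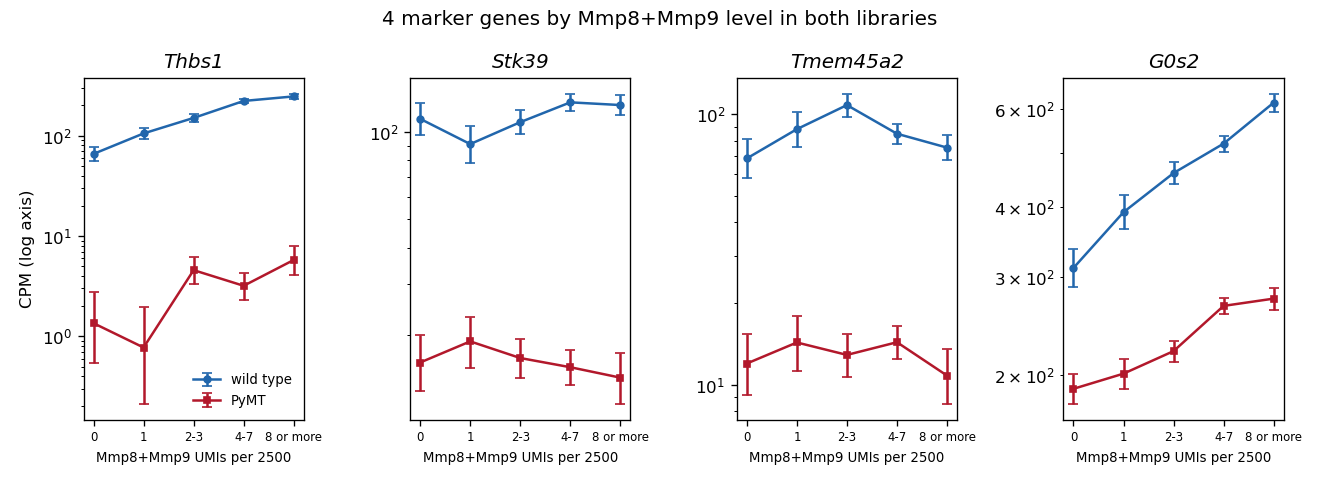
CPM (log y axes) of Thbs1, Stk39, Tmem45a2 and G0s2 in cells of the same limits in the wild-type and PyMT libraries, binned by Mmp8 and Mmp9 UMIs after thinning to 2500 UMIs per cell (x axes), with 95% counting intervals. The wild-type points lie above the PyMT points in every bin for all 4 genes.

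Against PyMT cells of the same limits, members carried more Camp and more of a few control-high genes, and less of the stefins and of many interferon and late maturation genes. Of 7627 genes with at least 100 UMIs over both sums, 606 were at least 2-fold higher in members, 7.95%, and 395 at least 2-fold lower, 5.18%; the median log2 ratio was 0.21. Scaling by the median of ratios sets that median to 0 and gives 329 higher and 538 lower genes. The control-high genes named next were listed with this difference known. Lpl, the lipoprotein lipase gene, was at 11.4 CPM in members and 0.49 in PyMT cells, a log2 ratio of 4.53 (3.86 to 5.26), Has2, a hyaluronan synthase gene, at 4.50 and 0.30, Fmnl2, an actin regulator gene, at 30.3 and 2.59, and Nrp1, the neuropilin 1 gene, at 29.2 and 4.59. These control-high genes did not share a place on the span: Nrp1 was at 32.0 CPM at the high and 11.98 at the low end, Lpl at 9.47 and 22.6, and Fmnl2 at 31.0 and 26.8. Wfdc17, a secreted protein gene of the whey acidic protein family, was at 27.7 CPM in members and 6137 in PyMT cells, and Steap4, a metalloreductase gene, had 0 UMIs in members and 2205 in PyMT cells, a log2 ratio of -8.47 or lower against the floor of 3 counts. Of 10 stefins and cystatins 9 reached 100 UMIs and 7 were lower in members. Of 15 secondary granule genes 2 were higher in members (Olfm4 and Camp), 1 was lower (Lrg1) and 12 were within 2-fold. Of 38 interferon response genes 28 reached 100 UMIs and 19 were lower in members, and 14 of 30 late maturation genes were lower and 1 was higher. The minimum was taken over both sums, 19546332 UMIs in members and 40530175 in PyMT cells. A gene scarce in members could thus enter these counts only through its PyMT UMIs, which favours lower values in members. Cxcr2 was at 140.4 and 398 CPM and Csf3r at 104 and 279 CPM, while Cxcr4 was at 152 and 56.9. Camp was at 70963 CPM in members against 31270.4, a log2 ratio of 1.18 that became 0.98 with median-of-ratios scaling, and 0 of 8 gelatinase granule genes with 100 UMIs passed 2-fold. The cells that met the limits were 1.49-fold deeper in PyMT by median, and whether the 2 libraries hold the same mix of cell ages was not tested.

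Wfdc17, abundant in PyMT cells, was concentrated in few members, while Prok2 and BC100530, also lower in members than in PyMT cells, were seen in 9.41% and 17.6% of members. At least 5 UMIs of Wfdc17 were found in 24 members, which held 312 of its 542 UMIs in members, 57.6%. Of the 24, 23 were at the high end, which held 82.9% of all members, and 1 was at the low end. Their barcodes occur 0 times in the PyMT library. The 24 cells had a median of 8883 UMIs, against 5229 in all members, and the part of depth was not tested. In these 24 cells, chosen after values were seen, Ifitm1 was at 206 CPM against 22.8 in the other 3248 members, Prok2, which encodes the neutrophil chemoattractant Bv8, at 214 and 19.4, the chemokine gene Ccl6 at 490 and 69.4, and BC100530 at 680 and 202. A single cell held 147 of the Wfdc17 UMIs, and the Ifitm1 and Prok2 UMIs each lay in 6 of the 24 cells and those of BC100530 in 8. Thbs1 was at 52.6 CPM in them (28.0 to 89.9) and 186 in the others, Camp at 49697 and 71235 and Mmp8 at 591 and 1021. Stfa2 UMIs were elsewhere: 7 of 399 lay in the 24 cells. Il1b and Cxcl2 together reached 5 UMIs in 113 members (median 5301 UMIs), which held 48.4% of the UMIs of those 2 genes. Of the 113, 105 were at the high end, where 82.9% of all members lay.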

How the data were processed

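The deposited matrices hold raw UMI counts per gene and cell that the authors made from 10x Genomics 3′ version 2 libraries, per the labels' protocols, with Cell Ranger 2.1.0 on mm10, per the submitters' processing notes. Every wild-type cell holds at least 2752 and every PyMT cell at least 2502 UMIs, so cells had been filtered before deposit. The files hold no cell annotation. The members, the limits, the 43 gene lists and the comparisons were chosen with earlier results of these data known.

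From the counts, UMIs were summed over the cells of a set and scaled to their total (CPM) in Python 3.11.15 with scipy 1.17.1, with exact Poisson intervals for levels, conditional intervals for ratios and Clopper-Pearson intervals for shares. Genes needed 100 UMIs over both sums, and a sum of 0 was set to a floor of 3 counts. The calculation was tested on simulated data. Named genes are the 15 highest and 15 lowest between the ends and the 12 and 12 of the other comparisons, ranked by the interval bound nearest 0, without ribosomal, mitochondrial, unnamed or clone-named genes. The 25 most abundant genes, the genes of 4 lists and up to 4 genes of each other list were added; others were named after their values were seen. Immunoglobulin and T cell receptor genes were not analysed here. Alternatives were other scalings, cell weights, minimums, limits and splits.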

Additional observations from a re-analysis of the deposited data

Results flagged for a closer look

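For 7 of the 214 genes named by rule, the ends differed by at least 2-fold in opposite directions in the wild-type and PyMT libraries. The share among all genes is not given here, and with 1 library per group the difference between libraries was not tested. Between the PyMT ends, 95 of 6407 genes were at least 2-fold higher at the high end and 380 lower. The median log2 ratio over all 6407 was -0.21. A lower level at the PyMT high end, as in all of the 7 but Gzma, was thus the more frequent direction there. Ccl6, a chemokine gene, was at 80.8 CPM at the high and 18.3 at the low end of wild-type members, but at 281 and 658 in PyMT, a difference of 3.37 between the log2 ratios. For Clec4d, a lectin receptor gene, the levels were 19.4 and 2.82 CPM in wild type and 74.8 and 162 in PyMT, a difference of 3.89. Srgn was at 45.1 and 12.7 CPM against 339.8 and 711, a difference of 2.90, and Dusp1, a phosphatase gene induced by stress, at 97.8 and 48.6 against 266 and 662, a difference of 2.32. Amica1, which encodes the adhesion molecule Jaml of the sorting panel, was at 11.2 and 4.23 CPM against 36.4 and 108, a difference of 2.98. Nr4a1, an immediate-early gene, was at 11.6 and 4.93 against 5.44 and 13.4, a difference of 2.53. The wild-type intervals of Nr4a1 (0.16 to 2.57) and Amica1 (0.26 to 2.87) come close to 0. Gzma, a cytotoxic granule gene, went the other way, at 5.42 and 14.8 CPM against 3.40 and 0.38, a difference of -4.60 that rests on 1 UMI at the PyMT low end and, at the wild-type low end, on 21 UMIs in 4 of 216 cells; NK cell markers summed to 45.1 CPM there against 13.8 at the high end. With the wild-type ends set after thinning each cell to 2500 UMIs, the wild-type log2 ratio was 0.33 for Ccl6, 0.54 for Srgn, 0.79 for Dusp1 and 0.80 for Nr4a1, short of 2-fold, and with cells matched on depth it was 0.13 for Amica1. The low end of the PyMT library was shallower than its high end (3388 and 8488 UMIs per cell by median) and that of the wild-type library deeper (6256 and 5080). The part of depth in these differences was not tested.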

How the results depend on the processing

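The share of wild-type cells within the limits was 59.6%, 55.6% with no UMI of the cycling genes allowed and 69.9% with each cell thinned to 2500 UMIs first, since the limits count UMIs. The share of members at the high end, 82.9%, was 53.3% with that thinning and 76.3% when only the ends were set after thinning (3 or more against 0 UMIs). The 338 higher genes of the high end became 207 with a minimum of 200 UMIs and 2 with ends set by Thbs1 alone. The 221 lower genes became 350 with each cell weighted equally, 387 with cells matched on depth, 436 with a minimum of 50 UMIs, 99 with one of 200 and 4 with ends set by Thbs1 alone. Members over PyMT cells had 329 in place of 606 higher genes after median-of-ratios scaling, which moves the median of all genes by 0.21, and 395 with a minimum of 200 UMIs; the 395 lower genes became 676 with cells matched on depth. Median-of-ratios scaling also turned the split of 606 higher to 395 lower into 329 to 538. With ends set by Thbs1 alone the log2 ratio reversed for Stfa3 (-0.47), Stfa2 (-1.31), BC100530 (-0.44), Gm5483 (-0.36), Prok2 (-0.59), Stfa2l1 (-0.15), Cyp4f18 (-0.0106), Cd84 (-0.15), Amica1 (-0.28), Ccl6 (-0.61), Clec4d (-0.48), Csf3r (-0.0096), Dhx58 (-0.097), Ifitm1 (-1.37), Il1b (-0.025), Lpl (0.066), Oas3 (-0.0088), Srgn (-0.18) and Wfdc17 (-1.52). Under the other 15 alternatives the only reversal among the 78 genes recomputed that were past 2-fold between the ends was Il1b with ends set after thinning (-0.32); 18 of them missed 2-fold at least once and 60 never did where they had enough UMIs. Of 67 genes recomputed and past 2-fold against PyMT cells, 5 (Camp, Cxcl2, Dut, G0s2 and Pnpla2) missed it under at least 1 of 11 alternatives and none reversed. Leaving out the 24 Wfdc17 cells, an alternative added after seeing the data, gave 334 higher and 227 lower genes between the ends, and leaving out members with a UMI of Cd74, H2-Aa or H2-Ab1, also added later, gave 242 and 189 of 3497. The latter setting kept 1265 of 2711 high-end and 95 of 216 low-end cells. No paired analysis was possible because each group is 1 library. Depth limits the low end, where 3 counts correspond to 2.11 CPM.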
